A study of Homo sapiens with 6 samples.

Results

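Whether TGF-β changed gene expression in cells given the omega-3 fatty acid docosahexaenoic acid (DHA) was read from 2 arrays of HMLE cells. The TGFb+DHA array held RNA of cells given TGF-β at 1 ng/ml by the array labels together with 20 μM DHA, and the DHA array held RNA of cells given 20 μM DHA and no TGF-β. Both are among the 6 arrays of the series, which measured 1 sample each of TGFb+DHA, DHA, TGFb (1 ng/ml, no DHA), Vector (neither agent), Snail+DHA and Snail cells. HMLE is a line of human mammary epithelial cells immortalized in culture, and the labels do not say whether the cells given TGF-β or DHA carried the empty vector of the Vector sample. The time in TGF-β or DHA before the arrays could not be read from the labels or methods, and the culture methods of the study name a higher TGF-β dose without reference to the arrays. Of the 20046 genes with a named probe, 13011 were above background on the TGFb+DHA or the DHA array and were compared. Each was represented by its probe of highest mean over the 6 arrays. With 1 array per condition, no difference below has a replicate check, no test was made, and precision is limited by the number of arrays.

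TGF-β binds a pair of serine/threonine kinase receptors, which phosphorylate SMAD2 and SMAD3, and these enter the nucleus with SMAD4 to change transcription. In epithelial cells the pathway is known for 2 outcomes, a halt of the cell cycle in G1 and an epithelial-mesenchymal transition (EMT), in which junction genes are silenced and genes of motility and extracellular matrix are switched on. DHA is a highly unsaturated fatty acid that is taken up into membrane phospholipids.

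The values are quantile normalized log2 signals, so every array has the same distribution and the same background threshold, 6.34, and 46.6% of probes lie above it. Before normalization the median restored signal was 81.2 on the TGFb+DHA array and 75.6 on the DHA array, the lowest of the 6, and 39.4% of probes were above background on TGFb+DHA and 41.1% on DHA, within the range of 36.9% to 44.6% over the 6 arrays. The basal epithelial keratin genes, markers of the labelled cell type, were abundant, with log2 values of 13.40 and 14.30 for KRT5 and 13.58 and 13.79 for KRT14 on the TGFb+DHA and DHA arrays. Of 21 leukocyte markers on the array, 8 were compared and 0 differed 2-fold, and the summed level of all 21 was 11.03 on TGFb+DHA and 11.04 on DHA. Their defining gene PTPRC was at background on both arrays, as was the endothelial cadherin gene CDH5.

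On the TGFb+DHA array, 224 of the 13011 genes (1.72%) read at least 2-fold higher than on the DHA array and 227 (1.74%) at least 2-fold lower, and 96.5% lay within 2-fold. The list counts with DHA below are to be read beside the 1.72% and 1.74% over all genes. Genes of cell division and a small set of matrix and protease genes stood at the high end, and genes of squamous differentiation and desmosomes at the low end. All differences below are log2 values of TGFb+DHA minus DHA unless another pair is named. Their median over all genes was 0.01, with the 5th percentile at -0.63 and the 95th at 0.60. When restored signals were instead scaled to equal medians, 303 genes were higher and 169 lower. At 4-fold the counts were 11 higher and 22 lower. The genes next to the 2-fold limit were HSD17B2 (1.00, with the DHA array at background) just inside and MCM3 (0.997) just outside on the high side, and EFNB3 (-1.002) inside and MARCKS (-0.999) outside on the low side. Probes to different parts of the same gene, which read the same 2 RNA samples, differed with an SD of 0.24 in their log2 difference. Of the 159 genes past 2-fold with a further probe above background, 145 (91.2%) had every such probe on the same side of 0. Only 63 of the 159 had another probe that was also at least 2-fold the same way. Over all 3511 genes with more than 1 probe above background, every probe had the same sign for 64.3%.

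**Figure D1:**
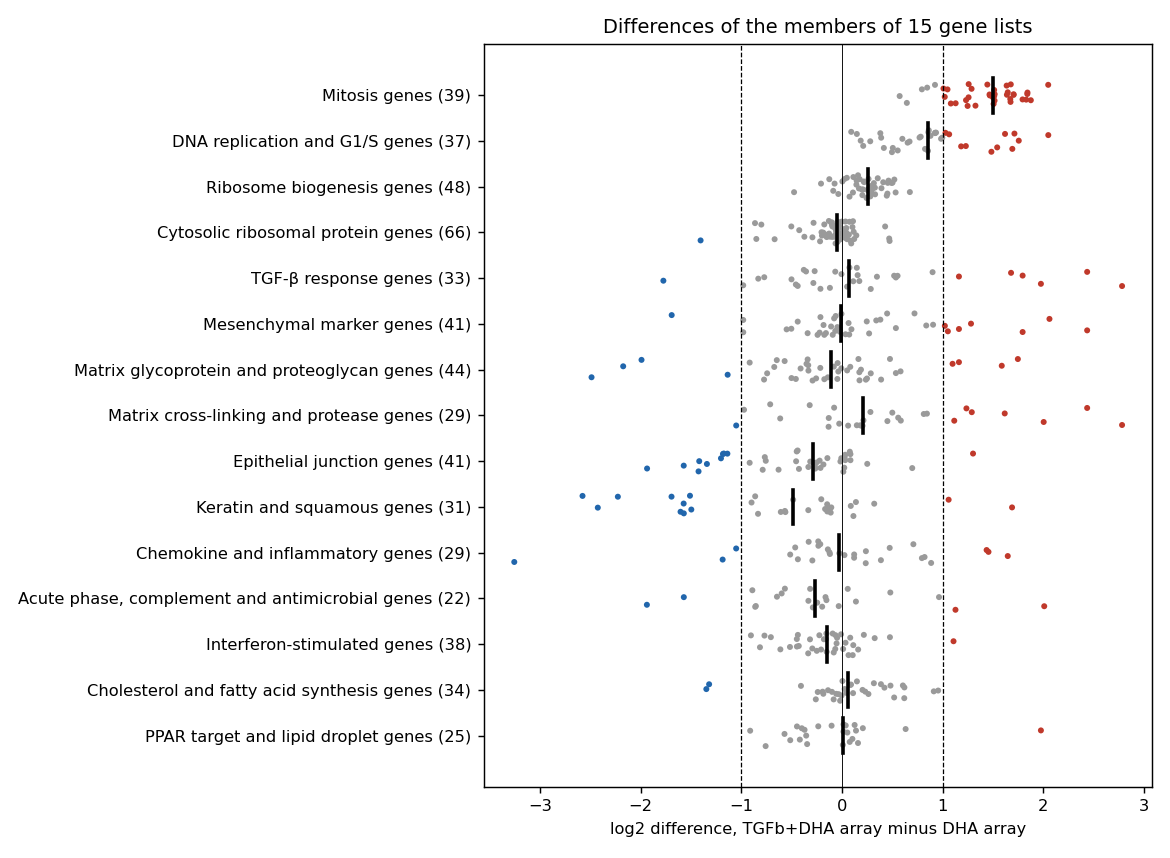
Log2 differences between the TGFb+DHA and DHA arrays (x axis) for the members of 15 gene lists (rows, with the number of members compared); each point is a gene, black bars are list medians, dashed lines mark 2-fold, and red and blue points lie past it. All 39 mitosis genes lie to the right of 0, with a median of 1.5, and the keratin and squamous genes have a median of -0.48.

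Mitosis genes were the group with the highest median difference. All 39 were compared, and 34 read at least 2-fold higher on the TGFb+DHA array (1.72% of all genes were) and 0 lower. The median difference was 1.5, against 0.01 over all genes. The list holds cyclins, kinases, kinesins and centromere proteins that peak in G2 and M phase. CCNA2, the cyclin that partners CDK1 and CDK2, had log2 values of 10.11 on TGFb+DHA and 8.06 on DHA, a difference of 2.05. UBE2C, the ubiquitin-conjugating enzyme of the anaphase-promoting complex, read 12.50 on TGFb+DHA and 10.62 on DHA, a difference of 1.88, with 0.64 for its other probe. ANLN, the scaffold anillin of the cleavage furrow, had 9.45 on TGFb+DHA and 7.61 on DHA (1.84), and AURKB, kinase of the chromosomal passenger complex, had 10.19 and 8.35 (1.84). CDC20, the activator of the anaphase-promoting complex, read 12.68 and 10.89 (1.79). Smaller differences were those of PTTG1 (securin) at 0.65 and the checkpoint kinase gene BUB1B at 0.79. MKI67, the Ki-67 antigen used to mark cycling cells, had 6.76 on TGFb+DHA and was at background on DHA, at least 1.34-fold higher. Outside the list, HJURP, the chaperone that loads the centromeric histone CENPA, had 8.98 on TGFb+DHA and 6.92 on DHA (2.06), and CEP55, a midbody protein, 9.71 and 7.78 (1.94). CKAP2L (1.88), the condensin subunit gene NCAPG (1.84), the kinesin gene KIF20A (1.83) and PLK4 (1.81), the kinase that starts centriole duplication, were also among the 25 highest genes.

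For these genes the DHA array was the one that stood apart. It was the lowest of the 6 arrays for 39 of the 39 mitosis genes, against 14.4% of all genes compared. The median log2 level of the list was 9.45 on TGFb+DHA, 7.74 on DHA, 9.22 on TGFb, 8.96 on Vector, 9.41 on Snail+DHA and 8.99 on Snail. The other 5 arrays thus lay between 8.96 and 9.45. In the median over the genes the DHA array differed from Vector by -1.02 and the TGFb+DHA array by 0.40. In bulk RNA, fewer dividing cells and less of these transcripts per cell cannot be told apart. With 1 DHA array, a property of that culture or hybridization and an effect of DHA cannot be told apart either. Without DHA, the TGFb array read 2-fold higher than Vector for 1 of the 39 genes (1.08% of all genes were), the transcription factor gene FOXM1, and the list had a median difference of 0.26.

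**Figure D2:**
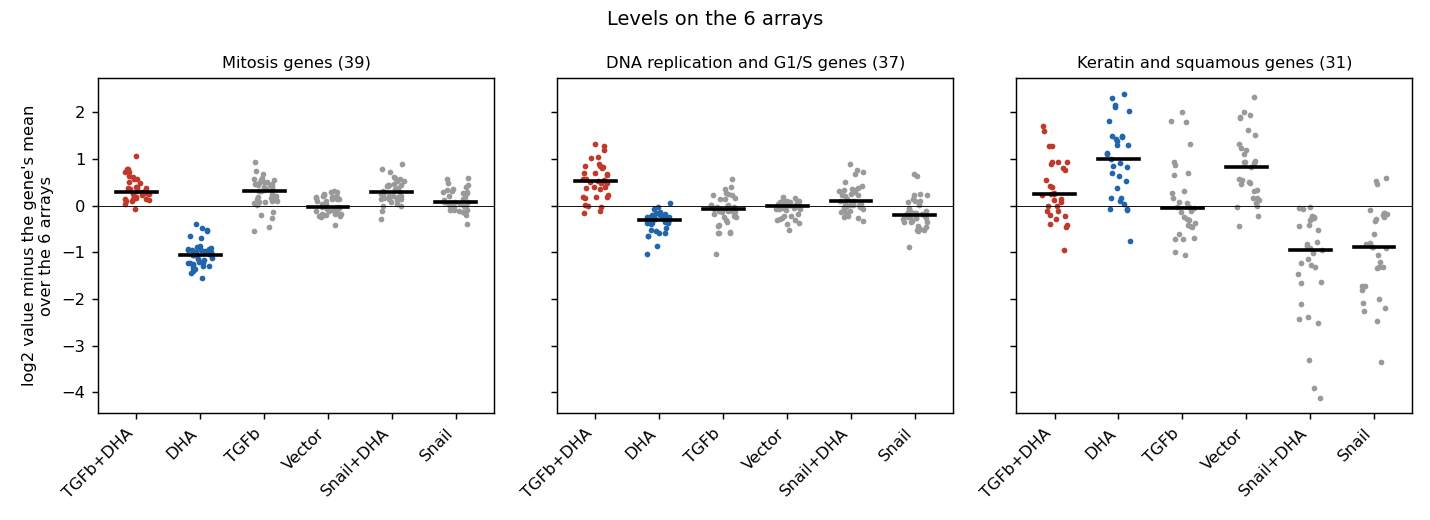
Log2 values of the genes of 3 lists on each of the 6 arrays, as the difference from the gene's own mean over the 6 arrays (y axis); points are genes and black bars medians. The DHA array (blue) is the lowest for all 39 mitosis genes, and the Snail and Snail+DHA arrays have the lowest medians of keratin and squamous genes.

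The promoters of mitosis genes are shown because many share a pair of elements. The pair is the CCAAT box bound by NF-Y and the cell cycle homology region TTTGAA. Through TTTGAA such genes are known to be held off outside G2 and M. These motifs were added after the values were seen. Sequences are RefSeq windows of 250 bases before to 50 bases after the start, build GRCh38.p14, 5′ to 3′ on the gene's strand, and capitals mark TTTGAA and CCAAT on either strand.
CDC20, chr1:43358731-43359030, plus strand: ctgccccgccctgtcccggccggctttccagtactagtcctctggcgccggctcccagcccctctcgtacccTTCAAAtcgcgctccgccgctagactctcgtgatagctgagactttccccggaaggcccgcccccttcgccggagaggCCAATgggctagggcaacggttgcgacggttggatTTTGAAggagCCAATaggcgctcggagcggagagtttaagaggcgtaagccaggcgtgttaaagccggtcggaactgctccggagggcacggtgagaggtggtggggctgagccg
ANLN, chr7:36389612-36389911, plus strand: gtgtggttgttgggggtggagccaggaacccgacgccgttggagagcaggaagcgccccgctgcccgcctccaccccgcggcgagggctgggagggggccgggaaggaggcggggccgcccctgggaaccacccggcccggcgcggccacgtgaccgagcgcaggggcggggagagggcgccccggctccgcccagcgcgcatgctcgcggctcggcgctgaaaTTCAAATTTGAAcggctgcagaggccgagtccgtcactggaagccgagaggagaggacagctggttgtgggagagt
HJURP, chr2:233854486-233854785, minus strand: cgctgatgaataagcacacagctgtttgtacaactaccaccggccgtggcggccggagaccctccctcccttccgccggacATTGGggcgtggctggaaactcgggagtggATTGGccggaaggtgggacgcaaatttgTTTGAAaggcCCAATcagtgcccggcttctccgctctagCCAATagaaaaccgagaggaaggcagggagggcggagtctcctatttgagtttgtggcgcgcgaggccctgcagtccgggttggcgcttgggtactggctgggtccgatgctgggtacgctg
CDC20 holds 2 copies of each motif, ANLN 2 of TTTGAA and 0 of CCAAT, and HJURP 1 of TTTGAA and 4 of CCAAT. A match is a description of the letters and not a shown binding site. TTTGAA was found in 25 of the 33 mitosis genes with a window (75.8%), against 14.7% of the 10299 compared genes with one, and CCAAT in 27 of 33 (81.8%), against 43.2%. Of the genes at least 2-fold higher, 64 of 177 (36.2%) held TTTGAA, and of those at least 2-fold lower, 24 of 177 (13.6%). DNA replication genes did not share it, with 2 of 33.

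DNA replication and G1/S genes also read higher with TGF-β, but by less. Of 37 compared, 11 were at least 2-fold higher (1.72% of all genes were) and 0 lower. The median was 0.86, and all 37 differences were above 0. CDC45, part of the replicative helicase, had log2 values of 10.28 on TGFb+DHA and 8.23 on DHA, a difference of 2.05. The helicase loading factor MCM10 (1.76), the GINS subunit GINS2 (1.71), the flap endonuclease FEN1 (1.69), thymidine kinase TK1 (1.62) and the ribonucleotide reductase subunit RRM2 (1.54) followed. PCNA, the sliding clamp, had 10.96 and 10.55 (0.42), so members of the same machine differed unequally. For this list the TGFb+DHA array was the highest of the 6 for 26 genes (70.3%, against 19.7% of all genes) and the DHA array the lowest for 18. EXO1, an exonuclease of replication and mismatch repair outside the list, had 9.05 on TGFb+DHA and 6.86 on DHA, a difference of 2.19 with 0.97 for its other probe, and UBE2T, an enzyme of the Fanconi anemia pathway, 10.42 and 8.53 (1.89). Without DHA, 0 of 36 replication genes were 2-fold higher on TGFb than on Vector, 1 (PCNA, -1.15) was lower, and the median was -0.03.

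The CDK inhibitor genes that TGF-β is best known for in the G1 arrest of epithelial cells did not read higher. CDKN2B, which encodes the CDK4 and CDK6 inhibitor p15, had log2 values of 8.73 on TGFb+DHA and 10.5 on DHA, a difference of -1.77, and its other probes gave -1.30 and -0.54. CDKN1C (p57) was at least 2.35-fold lower with TGF-β, being above background on the DHA array alone. CDKN1A (p21) had 13.42 and 13.77 (-0.36), within 2-fold. MYC, which is not a CDK inhibitor gene, had 11.98 and 12.39 (-0.41), also within 2-fold. Of 17 CDK inhibitor and G1 cyclin genes, 1 was higher, the phosphatase gene CDC25A at 1.38, with 0.48 for its other probe, and 2 were lower, with a median of -0.22. Over all genes, 1.72% were higher and 1.74% lower. Without DHA, CDKN2B read 9.85 on TGFb and 10.60 on Vector (-0.74), and 0 of the 17 passed 2-fold.

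Ribosome biogenesis genes showed small differences, mostly of the same sign. Of 48 compared, 0 passed 2-fold and 42 were above 0, with a median of 0.26. The nucleolar proteins NOLC1 (0.53), NOP56 (0.50) and NCL (nucleolin, 0.49) were among the higher ones, and the highest was WDR12 at 0.68. The TGFb+DHA array was the highest of the 6 for 41 of these genes (85.4%, against 19.7% of all genes), whereas the list's median difference without DHA was -0.15. Cytosolic ribosomal protein genes had a median of -0.05, with 1 of 66 past 2-fold, RPL28 at -1.40, and the respiratory chain and ATP synthase list a median of -0.08 with 0 of 64.

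Among genes of the TGF-β response, a few read much higher on the TGFb+DHA array while most lay near 0. Of 33 compared, 6 were at least 2-fold higher (18.2%, against 1.72% of all genes) and 1 was lower, CDKN2B, and the list median was 0.08. ADAM19, a membrane metalloprotease, had the largest positive difference of all 13011 genes, with log2 values of 9.98 on TGFb+DHA and 7.20 on DHA (2.78). SERPINE2, an inhibitor of thrombin and urokinase secreted into the matrix, had 13.46 and 11.03 (2.44). Both genes are rated here on 1 probe above background. CDH2, which encodes N-cadherin, had 8.83 on TGFb+DHA and 7.04 on DHA (1.80). ANGPTL4, a secreted inhibitor of lipoprotein lipase that is induced by TGF-β and by PPAR activators alike, had 9.17 and 7.19 (1.98), but its other probes gave 0.64 and 0.09. SPHK1, the kinase that makes sphingosine-1-phosphate, had 9.70 and 8.02 (1.68), and FN1, which encodes fibronectin, 7.60 and 6.44 (1.16). PMEPA1, a feedback inhibitor of the pathway, lay just under 2-fold with 9.52 and 8.62 (0.90). TGFBI, a matrix protein named for its induction by TGF-β, had 13.62 on TGFb+DHA and 13.34 on DHA (0.29), against 14.05 on TGFb and 12.48 on Vector (1.57). The inhibitory SMAD gene SMAD7 read -0.27 and the connective tissue growth factor gene CCN2 0.17.

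The promoter of ADAM19 is shown as that of the gene with the largest positive difference; RefSeq, GRCh38.p14, capitals mark CAGAC, the short site bound by SMAD proteins, on either strand.
ADAM19, chr5:157575726-157576025, minus strand: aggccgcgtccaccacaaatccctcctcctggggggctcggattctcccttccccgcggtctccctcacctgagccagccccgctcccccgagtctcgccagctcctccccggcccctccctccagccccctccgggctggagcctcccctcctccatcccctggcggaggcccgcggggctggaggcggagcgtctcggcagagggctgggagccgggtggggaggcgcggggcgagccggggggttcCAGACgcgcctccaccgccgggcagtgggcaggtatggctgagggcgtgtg
It holds 1 match. CAGAC is a short motif that 51.4% of the compared genes with a window hold, and 18 of 26 TGF-β response genes (69.2%). It was in 53.1% of the genes at least 2-fold higher and in 55.4% of those at least 2-fold lower. Replication genes held it at 60.6%, junction genes at 59.1% and mitosis genes at 36.4%. The palindrome GTCTAGAC, a pair of such sites, was found in 0.204% of the compared genes and in 1 of the 177 genes at least 2-fold higher that have a window. It was in 0 of the 177 such genes at least 2-fold lower and in 0 of the 26 TGF-β response genes.

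Of 14 genes of ligands, receptors and latent binders compared, TGFBR3 alone passed 2-fold. This co-receptor, betaglycan, had log2 values of 6.42 on TGFb+DHA and 8.11 on DHA (-1.69). It read 7.11 on TGFb and 7.05 on Vector, so DHA was above Vector and TGFb+DHA below it. The endothelial co-receptor gene ENG had 7.75 and 6.85 (0.91), and FST, the activin antagonist follistatin, 10.92 and 10.03 (0.89), both just within 2-fold. TGFBR2, the ligand-binding receptor, had 11.03 and 11.13 (-0.11), and TGFBR1, TGFB1 and TGFB2 were not above background on either array. In the ID, BMP and inhibitory SMAD list, 1 of 16 genes passed 2-fold. That gene was ID3, an inhibitor of basic helix-loop-helix factors, at 9.59 on TGFb+DHA and 11.16 on DHA (-1.57), whereas ID1 read 8.40 and 8.18 (0.22).

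**Figure D3:**
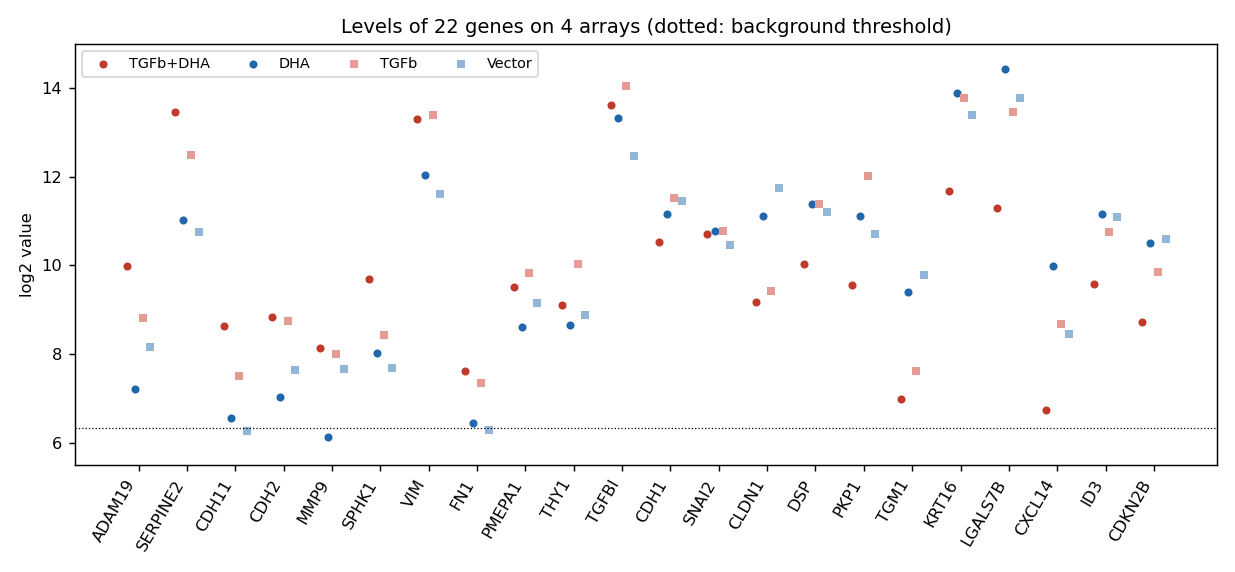
Log2 values (y axis) of 22 genes on the TGFb+DHA, DHA, TGFb and Vector arrays, 1 point per array, with the background threshold of 6.34 as a dotted line. ADAM19 and SERPINE2 are highest on TGFb+DHA, TGFBI and THY1 are highest on TGFb, and KRT16, LGALS7B and CXCL14 are lowest on TGFb+DHA.

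The mesenchymal side of an EMT was seen in a subset of its marker genes. Of 41 mesenchymal markers compared, 7 read at least 2-fold higher (1.72% of all genes were) and 1 lower (1.74% of all genes were). Their median was -0.00, close to that of all genes. The 7 were SERPINE2, CDH11, CDH2, VIM, FN1, TWIST2 and NT5E. SERPINE2, CDH2 and FN1 are also counted in the TGF-β response list. CDH11, a cadherin of mesenchymal cells, had log2 values of 8.62 on TGFb+DHA and 6.56 on DHA (2.06). VIM, the intermediate filament vimentin, had 13.32 and 12.03 (1.28), with 1.80 for its other probe. The transcription factor gene TWIST2 had 8.54 and 7.48 (1.05), and the 5′-nucleotidase gene NT5E (CD73) 9.21 and 8.19 (1.02). CYBRD1, a ferric reductase, was the marker that was lower, with 9.11 and 10.80 (-1.69). Of the EMT transcription factors, SNAI1, ZEB1 and ZEB2 were not above background on either array, SNAI2 had 10.71 on TGFb+DHA and 10.78 on DHA (-0.07), and TWIST1 8.63 and 8.59 (0.04). The stromal genes ACTA2 (-0.98), COL1A1 (-0.44) and TAGLN (-0.21) did not read higher. Contractile and SRF-dependent cytoskeleton genes had 0 of 29 past 2-fold and a median of -0.00, beside a median of 0.37 without DHA.

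Matrix genes went both ways. THBS1, which encodes thrombospondin-1, an activator of latent TGF-β, had log2 values of 12.46 on TGFb+DHA and 10.71 on DHA (1.75). LAMB3, the laminin-332 β chain, had 12.79 and 11.20 (1.59), but its other probe above background gave -0.12. At the other end, IGFBP2, an insulin-like growth factor binding protein, had 7.99 and 10.47 (-2.49), EFEMP1 (fibulin-3) 9.57 and 11.56 (-1.99), and the proteoglycan gene BGN (biglycan) was at least 3.90-fold lower. In all, 4 of 44 matrix glycoprotein and proteoglycan genes were higher (1.72% of all genes were) and 4 lower (1.74% of all genes were). Their median was -0.11. Collagen genes showed 1 of 18 higher, COL8A1 at 1.02 with 0.34 and 1.05 for its other probes, and 2 lower, the basement membrane chains COL4A5 (-1.38) and COL4A6 (-1.35, with -0.38 for its other probe). The list of integrin genes and genes of integrin-linked proteins had 0 of 20 past 2-fold but 17 above 0, with a median of 0.24. The highest was ITGA10 at 0.91, and those below 0 were ILK (-0.01), VCL (-0.02) and PXN (-0.07), which are not integrins.

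Among lists with at least 20 genes compared, matrix cross-linking and protease genes had the third highest share past 2-fold on the high side. The mitosis and replication lists had higher shares. Of 29 matrix cross-linking and protease genes, 7 were higher (24.1%, against 1.72% of all genes) and 1 lower, the inhibitor TIMP3 (-1.05). The 7 include ADAM19 and SERPINE2, which are also counted in the TGF-β response list. MMP9, the gelatinase that degrades basement membrane collagen, had 8.13 on TGFb+DHA and was at background on DHA, which makes it at least 3.47-fold higher. ADAM8 was likewise at least 2.15-fold higher. TGM2, the cross-linking enzyme tissue transglutaminase, had log2 values of 8.80 on TGFb+DHA and 7.18 on DHA (1.62), with 0.61 and 1.15 for its other probes. The urokinase gene PLAU had 11.66 on TGFb+DHA and 10.42 on DHA (1.24), and PLAUR, its receptor, 8.84 and 7.72 (1.12, with 0.57 and 1.18 for its other probes). On Vector and TGFb, MMP9 had 7.65 and 7.996, PLAU 11.34 and 11.498, and PLAUR 9.004 and 7.60. Of the 7 genes, all but SERPINE2 (11.03 on DHA and 10.76 on Vector) read lower on DHA than on Vector. PLAUR alone of the 7 was lower on TGFb+DHA than on Vector. The DHA array was the lowest of the 6 for 8 of the 29 list genes (27.6%, against 14.4% of all genes). The membrane-bound metalloprotease gene MMP14 (-0.03) and the lysyl oxidase gene LOX (-0.08) lay near 0.

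Epithelial junction genes read lower, and most of those past 2-fold were desmosomal. Of 41 compared, 9 were at least 2-fold lower (22%, against 1.74% of all genes) and 1 was higher, 30 differences were below 0, and the median was -0.29. CLDN1, the tight junction protein claudin-1, had log2 values of 9.17 on TGFb+DHA and 11.11 on DHA (-1.93). The other 8 were the desmosomal plaque genes PKP1 (-1.57) and DSP (-1.34), the desmosomal cadherins DSC3 (-1.42), DSC2 (-1.20, with -0.62 for its other probe) and DSG3 (-1.17), the plakins PPL (-1.42) and EVPL (-1.14), and PERP (-1.18), a desmosome-associated membrane protein. DSP, which ties desmosomes to keratin filaments, had 10.04 and 11.38, and its other probes gave -0.58 and -0.85. CDH1, which encodes E-cadherin, had 10.53 on TGFb+DHA and 11.15 on DHA (-0.63), within 2-fold. EPCAM, an epithelial adhesion molecule, was the gene that was higher, with 11.33 and 10.03 (1.30) and with 0.88 and 0.90 for its other probes. It read 10.88 on TGFb and 11.22 on Vector, so of these arrays DHA was the lowest.

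Genes of keratins and squamous differentiation read lower on the TGFb+DHA array. Of 31 compared, 9 were at least 2-fold lower (29.0%, against 1.74% of all genes) and 2 higher, and the median was -0.48. KRT1, a keratin of suprabasal epidermis, was at background on TGFb+DHA and had 8.83 on DHA, at least 5.61-fold lower. It read 6.57 on TGFb, 6.46 on Vector, 6.08 on Snail and 5.89 on Snail+DHA, so it was high on the DHA array alone. TGM1, the transglutaminase that cross-links the cornified envelope, had log2 values of 6.97 on TGFb+DHA and 9.40 on DHA (-2.42). KRT16, a keratin of activated keratinocytes, had 11.68 and 13.90 (-2.23), and its pseudogene KRT16P2, whose probe may share its transcripts, read -2.19. KRTDAP (-1.69), SBSN (-1.60), CALML3 (-1.57), S100A8 (-1.57), SPRR1B (-1.51) and SPRR1A (-1.5) were the other 6. Most of these encode secreted or envelope proteins of keratinizing cells. KRTDAP had 8.75 on DHA, beside 6.80 on TGFb and 6.91 on Vector. Without DHA, S100A8 (-3.00), SPRR1B (-2.61), TGM1 (-2.18), SPRR1A (-1.94) and CALML3 (-1.06) were also at least 2-fold lower on TGFb than on Vector. SBSN (-0.94), KRTDAP (-0.11), KRT1 (0.11) and KRT16 (0.38) were within 2-fold there. Basal KRT5 had 13.40 on TGFb+DHA and 14.30 on DHA (-0.90), and KRT14 lay at -0.20. The simple-epithelial KRT7 was higher, at 11.37 and 9.68 (1.69), as was LCE3D, a late envelope gene, at 1.06. KRT7 read 10.75 on both TGFb and Vector, above its value on DHA. Outside the list, LGALS7B and LGALS7, neighbouring and near-identical genes of the keratinocyte lectin galectin-7 whose probes may not tell them apart, read 11.29 and 14.43 (-3.14) and 10.59 and 13.62 (-3.03). ZNF750, a transcription factor of epidermal differentiation, was at least 5.28-fold lower. For 13 of the 31 list genes (41.9%, against 14.8% of all genes) the DHA array was the highest of the 6, and the list's median on TGFb+DHA, 8.96, lay between 9.40 on DHA and 8.01 on TGFb.

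Promoters of LGALS7B and CXCL14, the protein-coding genes with the largest negative differences, are given with capitals at the AP-1 site TGANTCA and the E-box CACCTG, to which Snail and ZEB factors bind, on either strand (RefSeq, GRCh38.p14).
LGALS7B, chr19:38788950-38789249, plus strand: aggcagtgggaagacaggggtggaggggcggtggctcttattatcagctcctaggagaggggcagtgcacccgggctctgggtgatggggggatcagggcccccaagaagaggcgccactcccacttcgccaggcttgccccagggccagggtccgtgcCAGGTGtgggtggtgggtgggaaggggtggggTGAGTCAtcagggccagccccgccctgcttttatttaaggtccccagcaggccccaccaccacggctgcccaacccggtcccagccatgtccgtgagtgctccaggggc
CXCL14, chr5:135578942-135579241, minus strand: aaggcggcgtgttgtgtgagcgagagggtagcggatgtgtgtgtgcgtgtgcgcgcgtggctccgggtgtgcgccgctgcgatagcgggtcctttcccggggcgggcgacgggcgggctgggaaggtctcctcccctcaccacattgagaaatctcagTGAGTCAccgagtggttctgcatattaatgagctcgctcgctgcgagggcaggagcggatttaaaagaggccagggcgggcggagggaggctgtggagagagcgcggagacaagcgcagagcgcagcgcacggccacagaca
LGALS7B holds 1 match of each, and CXCL14 1 of the AP-1 site and 0 of the E-box. The AP-1 site was found in 8 of 19 keratin and squamous genes with a window (42.1%), against 7.50% of the compared genes, and in 30 of 177 genes at least 2-fold lower (16.9%). The E-box was found in 12 of those 19 (63.2%), in 12 of 22 junction genes (54.5%) and in 58 of 177 genes at least 2-fold lower (32.8%), against 24% of the compared genes.

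The largest negative difference belonged to H19, an imprinted long noncoding RNA. It was at background on TGFb+DHA and had a log2 value of 9.68 on DHA, at least 10.1-fold lower, and on TGFb and Vector it read 7.76 and 7.59. CXCL14, a chemokine made by resting epithelia, had 6.73 on TGFb+DHA and 9.99 on DHA (-3.25), beside 8.68 and 8.44 on TGFb and Vector. For both genes the DHA array was above Vector and the TGFb+DHA array below it. NSG1 (-2.57, with -0.47 for its other probe), the surface antigen mesothelin (MSLN, -2.49), carbonic anhydrase CA2 (-2.29), the glutathione transferase GSTA4 (-2.23), the chaperone αB-crystallin (CRYAB, -2.0) and HOPX, at least 3.57-fold lower with -0.33 for its other probe, were also among the 25 lowest. Among the 25 highest were SCG5, a secretory granule chaperone (9.47 on TGFb+DHA and 6.72 on DHA, 2.75), the heparan sulfate sulfotransferase HS3ST3A1 (2.10), the defensin gene DEFB103A (2.01), the metallothionein gene MT1G (1.97) and asparagine synthetase ASNS (1.94). ASNS is a target of the amino acid response factor ATF4, and in that list MTHFD2 (1.01) was the other gene higher, with a median of 0.11 over 32 genes. In that list NUPR1, a stress-induced chromatin protein, was the gene lower, with 9.72 on TGFb+DHA and 11.37 on DHA (-1.64).

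Chemokine and inflammatory genes had no common direction with TGF-β in the presence of DHA. Of 29 compared, 3 were higher (1.72% of all genes were) and 3 lower (1.74% of all genes were), and the median was -0.02. The neutrophil chemokine genes CXCL1 and CXCL8 and the prostaglandin synthase gene PTGS2 (1.46, with 0.63 for its other probe) were higher. CXCL1 had log2 values of 8.64 on TGFb+DHA and 6.99 on DHA (1.65), and CXCL8 7.95 and 6.52 (1.44, with 0.66 for its other probe). CXCL14, TNFSF10 (TRAIL, -1.18) and the interleukin-1 receptor antagonist IL1RN, at least 2.07-fold lower with -0.08 for its other probe, were the 3 on the low side. Without DHA, 14 of 28 of these genes were at least 2-fold lower on TGFb than on Vector (0.807% of all genes were), with a median of -1.01. The median level of the list was 7.45 on TGFb+DHA, 7.36 on DHA and 7.4 on TGFb, against 8.83 on Vector. Of these 4 arrays, Vector was the one that stood apart. Interferon-stimulated genes had median levels of 7.44 on TGFb+DHA, 7.51 on DHA and 8.11 on TGFb, against 8.90 on Vector, which was again the highest of these 4, and 1 of 38 passed 2-fold with DHA, the exonuclease gene ISG20 (1.11). In the acute phase, complement and antimicrobial list, 2 of 22 were higher (1.72% of all genes were), DEFB103A and RNASE7 (1.13). In the same list 2 were lower (1.74% of all genes were), the protease inhibitor SLPI (-1.94) and S100A8.

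Lipid genes are of interest because both samples received a fatty acid. The PPAR target and lipid droplet list had a median of 0.01 and 1 of 25 genes past 2-fold, ANGPTL4. PLIN2, a lipid droplet coat protein, was at 6.11 on TGFb+DHA and 6.53 on DHA, near background. In the cholesterol and fatty acid synthesis list, 0 of 34 were 2-fold higher and 2 lower, the desaturase SCD5 (-1.35, with -0.21 for its other probe) and the sterol reductase TM7SF2 (-1.32). The nearest on the high side were the citrate lyase ACLY (0.96) and the desaturase FADS1 (0.91). Sphingolipid, caveolar and raft genes had 2 of 28 higher, SPHK1 and the caveolar coat gene CAVIN3 (1.38), and 2 lower, LYPD3 (-1.87) and CAVIN2 (-1.35), while CAV1 had 13.16 and 13.35 (-0.19).

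Stem cell surface, ALDH and SOX genes had 1 of 23 higher, EPCAM, and 3 lower, the receptors NOTCH3 (-1.65) and NOTCH1 (-1.43) and the transcription factor gene KLF4 (-1.14, with -0.82 for its other probe). Over all genes, 1.72% were higher and 1.74% lower. CD44 had log2 values of 12.40 on TGFb+DHA and 12.67 on DHA (-0.27), and CD24 12.20 and 12.69 (-0.49). THY1 read 9.11 and 8.66 (0.45), and ALDH1A3, a retinaldehyde dehydrogenase, 8.46 and 8.43 (0.03). In the EGF family and ERK feedback list, ETV5 (1.18, with 0.64 for its other probe) and IER3 (1.11) were higher, and the phosphatase gene DUSP1 (-1.54), the receptor gene ERBB3 (-1.14, with -0.22 for its other probe) and FOS (-1.13) lower, with a median of -0.01 over 32 genes.

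The same contrast without DHA, TGFb against Vector, uses none of these arrays and can be set beside it. It had 141 of 13009 genes at least 2-fold higher (1.08%) and 105 lower (0.807%). Over the 12024 genes compared in both, the counts were 219 and 226 with DHA (1.82% and 1.88%), and 140 and 105 without (1.16% and 0.873%). Most genes past 2-fold in 1 contrast did not pass it the same way in the other, but the shared genes exceeded the all-gene share. Higher in both were 12 genes. They were 5.48% of those higher with DHA, against 1.16% of all genes higher without it. They were 8.57% of those higher without DHA, against 1.82% of all genes higher with it. Lower in both were 19, which is 8.41% of those lower with DHA, against 0.873% of all genes lower without it. It is 18.1% of those lower without DHA, against 1.88% of all genes lower with it. Across the 12024 genes the differences had a Pearson correlation of 0.01 and a Spearman correlation of -0.04, a description over genes, which are not independent replicates. Genes at least 2-fold higher with DHA had a median difference of 0.12 without it, and genes at least 2-fold lower with DHA one of 0.02, beside 0.03 for all genes.

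The 12 genes higher in both were SERPINE2, CDH11, CDH2, VIM, FN1, LAMB3, COL8A1 and SRPX, with APCDD1L, FAM83A, PANX2 and FOXM1. SERPINE2 differed by 2.44 with DHA, and without it had 12.50 on TGFb and 10.76 on Vector (1.74). VIM differed by 1.28 with DHA, beside 13.40 on TGFb and 11.62 on Vector (1.78), and CDH2 by 1.80, beside 8.75 and 7.65 (1.10). Among the 19 genes lower in both, CLDN1 differed by -1.93 with DHA, and without it had 9.43 on TGFb and 11.75 on Vector (-2.32). TGM1 differed by -2.42 with DHA, beside 7.62 on TGFb and 9.79 on Vector (-2.18), and SLPI by -1.94, beside 8.99 and 11.78 (-2.79). KLK7, a kallikrein peptidase of skin shedding, differed by -1.52 with DHA, where its other probe gave -0.33, beside 7.71 and 10.82 (-3.11). KRT13, SPRR1A, SPRR1B, S100A8, CALML3, SULT2B1, LYPD3, CRABP2, CA2, BBOX1, ZNF750, SCD5, SFTPD, DKK1 (-1.05 with DHA, and -0.54 for its other probe) and LINC01315 made up the rest.

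**Figure D4:**
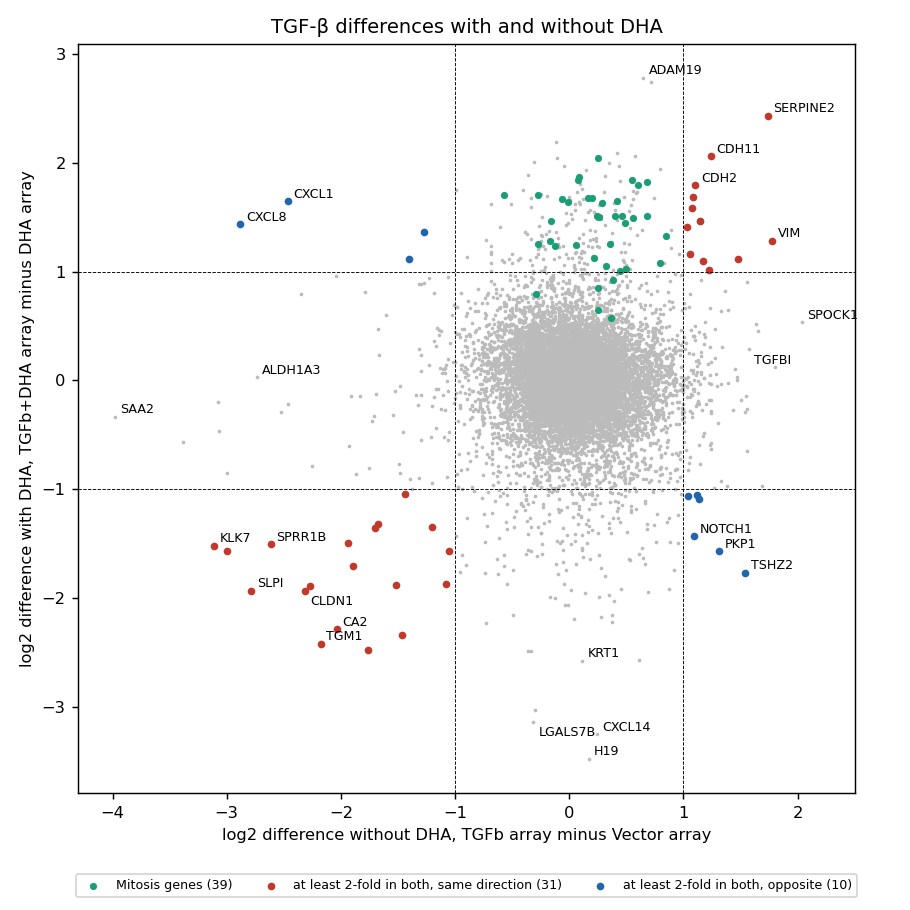
Log2 difference with DHA (TGFb+DHA minus DHA, y axis) against that without DHA (TGFb minus Vector, x axis) for the 12024 genes compared in both, dashed lines at 2-fold; points off the shared set are not drawn. The 12 genes higher in both and 19 lower in both are red, 10 with opposite differences blue, and mitosis genes, green, lie high on the y axis and near 0 on the x axis (1 of them, FOXM1, is red).

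Several genes set the 2 contrasts apart. ADAM19 differed by 2.78 with DHA, and without it had 8.81 on TGFb and 8.16 on Vector (0.65). The serum amyloid gene SAA2, which shares sequence with SAA1, had 6.93 on TGFb+DHA and 7.27 on DHA (-0.33), beside 6.87 on TGFb and 10.85 on Vector (-3.98), and ALDH1A3 differed by 0.03, beside 7.41 and 10.15 (-2.74). For SAA2 and ALDH1A3, Vector was the highest of these 4 arrays. SPOCK1, a proteoglycan gene, had 8.55 on TGFb+DHA and 8.01 on DHA (0.54), beside 9.39 on TGFb and 7.35 on Vector (2.04). Mesenchymal markers had 8 of 41 genes at least 2-fold higher without DHA and a median of 0.42, matrix glycoproteins 6 of 42 and 0.41, and junction genes 2 higher and 3 lower of 41 and a median of -0.09. None of the 8 desmosomal and plakin genes named above passed 2-fold lower there. DSC2 had 9.97 on TGFb and 10.43 on Vector (-0.46), DSP 11.38 and 11.21 (0.18), DSC3 10.68 and 10.70 (-0.02), and PKP1 12.03 and 10.71 (1.31). With 4 arrays for 4 conditions, whether the contrasts differ was not tested.

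The Snail+DHA against DHA contrast shares the DHA array, so its values are only set beside these. CCNA2 differed by 2.05 with TGF-β and 1.68 with Snail, SERPINE2 by 2.44 and 2.71, CDH2 by 1.80 and 3.56, and VIM by 1.28 and 2.0. DSP differed by -1.34 with TGF-β and -4.81 with Snail, and KRT16 by -2.23 and -6.02. CDH1 differed by -0.63 with TGF-β and was not above background on Snail+DHA. THBS1 (1.75 and -0.54) and LAMB3 (1.59 and -1.48) read higher with TGF-β and not with Snail.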

How the data were processed

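Expression was measured in 6 HMLE samples on Illumina HumanHT-12 v4 arrays. The authors read the scans with the IlluminaExpressionFileCreator module of GenePattern and quantile normalized them; no source used here gives the module's background setting. The deposited log2 table, from the series matrix, gave all values here. Its base is inferred from its range, and quantile normalization hides differences in overall signal between arrays. The deposited intensity table of 47323 probes served for alternatives. Its values reach past 65535, the most a 16-bit scanner records, and their natural logarithm has the range of the log2 table, so signals were restored as 2 to the power of that logarithm.

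Probes were named from the platform's gene table and RefSeq: 30113 have 1 symbol, 8 several and 17202 none here. Genes without such a probe were not analysed here. A probe was above background at an estimated one-sided p under 0.05 from the low peak of its array. "At least" folds set a gene against the higher of the lowest signal above background and its own signal. The 37 gene lists (1182 genes, 1109 on the array) and the comparison were chosen with earlier results of these data known. Some genes are in more than 1 list. Named genes are the 25 highest and 25 lowest, up to 6 list members past 2-fold per direction, a fixed set of EMT and TGF-β genes and those with the most different contrasts; others were chosen after their values were seen. Scripts used Python 3.11.15, R 4.3.3 and limma 3.58.1 (normexp, offset 50 or 16) and were tested on simulated data.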

Additional observations from a re-analysis of the deposited data

Results flagged for a closer look

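The TGF-β difference had opposite signs with and without DHA, each past 2-fold, for 10 genes, and with 1 array per condition none of these differences between contrasts was tested. The values give the log2 difference TGFb+DHA minus DHA, then TGFb minus Vector, then the gap between them. The chemokine genes CXCL8 (1.44, -2.88, gap 4.32) and CXCL1 (1.65, -2.46, gap 4.11), the zinc transporter gene SLC39A8 (1.37, -1.27, gap 2.64) and the urokinase receptor gene PLAUR (1.12, -1.40, gap 2.52) read higher with TGF-β in DHA and lower without it. For all 4, Vector read above DHA: CXCL8 had 7.95 on TGFb+DHA, 6.52 on DHA, 6.65 on TGFb and 9.53 on Vector. Lower with TGF-β in DHA and higher without it were the transcription factor gene TSHZ2 (-1.77, 1.54, gap -3.31), the desmosomal PKP1 (-1.57, 1.31, gap -2.89), the receptor NOTCH1 (-1.43, 1.09, gap -2.53), BAIAP2 (-1.09, 1.13, gap -2.23), the glucocorticoid-induced TSC22D3 (-1.06, 1.12, gap -2.17) and VIPR1 (-1.06, 1.04, gap -2.10). PKP1 had 9.56 on TGFb+DHA, 11.13 on DHA, 12.03 on TGFb and 10.71 on Vector.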

How the results depend on the processing

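No paired analysis was possible because each condition has 1 array and the labels carry no replicate numbers. The 2-fold counts were 224 higher and 227 lower. They became 479 and 552 when the deposited intensities were read as linear, and the medians then became 2.17 for mitosis, 1.26 for replication and -0.75 for keratin and squamous genes. At 1.5-fold the counts were 685 and 725. With a normexp offset of 16 on restored signals they were 320 and 356, and with a common median 303 and 169, when the median of all genes was 0.10. In the other settings the higher count lay between 195 and 236 and the lower between 182 and 235. The metallothionein median was 0.43 over 6 genes and -0.034 with no filter on dim probes. All 124 named genes past 2-fold kept their sign wherever they were compared, but every setting reads the same 2 arrays on which they were chosen. With a common median 118 of the 124 stayed past 2-fold, and with the mean over all probes 109. Of the 224 and 227 genes, 192 and 180 stayed past 2-fold with the mean over all probes, 221 and 169 with a common median. The background threshold set before quantile normalization was added after seeing the data. The causes were not tested.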
